A study of Mus musculus with 8 samples.

Results

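The tumour necrosis factor (TNF) superfamily ligands examined here are 10 genes: Tnf, Tnfsf4, Tnfsf8, Tnfsf9, Tnfsf10, Tnfsf12, Tnfsf13b, Tnfsf14, Tnfsf15 and Fasl. They were found by gene symbol among the 54532 genes of the deposited expression table, each on a single row. All 10 had a read in at least 1 library, and 7 passed the filter on low values (at least 1 FPKM in at least 2 of the 8 libraries), which left 11421 genes to test. Tnfsf13b, Tnfsf15 and Fasl did not pass it. FPKM is the number of sequenced fragments per kilobase of transcript, scaled by a factor for each library, so that levels of different genes can be set side by side per length. In the deposited values that factor holds the median gene steady between libraries and does not follow the total of reads.

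The RNA came from mouse bone marrow derived macrophages, cells grown from marrow precursors in culture. There were 4 groups of 2 libraries: spermine and 3 h, spermine and 0 h, PBS and 3 h, and PBS and 0 h. The letter in the labels before the time is read as IFN-β, the stimulus that the series text names. Spermine is a polyamine, a small positively charged molecule that cells make from arginine and ornithine, and PBS is the buffer given in its place. Every 3 h library had received IFN-β, so an effect of IFN-β and an effect of 3 h in culture cannot be told apart. The sources used here do not give strain, genotype, age, the doses of spermine and IFN-β or the animals behind the libraries. The p-values therefore measure the spread between libraries, which may be technical.

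TNF superfamily ligands are made as trimers on the surface of immune cells, and proteases release some of them as soluble cytokines. Each binds a small number of receptors of the matching receptor superfamily, which pass the signal to NF-κB and MAP kinases or, through death domains, to caspases and the necroptosis machinery. In macrophages TNF is an early inflammatory cytokine, and TRAIL, the product of Tnfsf10, is known as an interferon-stimulated ligand. Type I interferon acts through a kinase and STAT pathway whose complex binds the interferon-stimulated response element (ISRE) in promoters.

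The ligand genes lie on 6 chromosomes (GRCm38). Tnf (ENSMUSG00000024401, chromosome 17, 35199381 to 35202007, minus strand), Tnfsf9 (ENSMUSG00000035678, 57105325 to 57107757, plus strand) and Tnfsf14 (ENSMUSG00000005824, 57189492 to 57194177, minus strand) share chromosome 17. Tnfsf15 (ENSMUSG00000050395, 63727084 to 63745113, minus strand) and Tnfsf8 (ENSMUSG00000028362, 63831308 to 63861347, minus strand) lie in the same orientation on chromosome 4. Tnfsf4 (ENSMUSG00000026700, 161395409 to 161418410, plus strand) and Fasl (ENSMUSG00000000817, 161780689 to 161788495, minus strand) are on chromosome 1. Tnfsf10 (ENSMUSG00000039304) is on chromosome 3, 27317028 to 27342427, plus strand. Tnfsf12 (ENSMUSG00000097328) is on chromosome 11, 69686250 to 69695849, minus strand. Tnfsf13b (ENSMUSG00000031497) is on chromosome 8, 10006467 to 10039072, plus strand. Tnfsf12 overlaps an antisense gene and the readthrough gene Tnfsfm13, and Tnfsf9 overlaps the opposite-strand lincRNA Gm11110. The sources used here do not say whether the counting used strand, so reads of Tnfsf12 and Tnfsf9 could not be fully separated from those of these partners.

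RefSeq promoter windows (GRCm38.p6, 250 bases before to 50 after a start) were present for 7 of the 10 genes, in 8 windows, and those of Tnfsf4, Tnfsf9 and Tnfsf12 were not used here. The 3 sequences printed below are the 250 bases before the start, 5′ to 3′ in the gene's direction. They show the ligand with the highest level in PBS 3 h, the only one with a complete ISRE, and a ligand that rose with IFN-β with no match. Capitals mark matches to the motifs searched on both strands.
Tnfsf10, chr3:27316827-27317076, plus strand: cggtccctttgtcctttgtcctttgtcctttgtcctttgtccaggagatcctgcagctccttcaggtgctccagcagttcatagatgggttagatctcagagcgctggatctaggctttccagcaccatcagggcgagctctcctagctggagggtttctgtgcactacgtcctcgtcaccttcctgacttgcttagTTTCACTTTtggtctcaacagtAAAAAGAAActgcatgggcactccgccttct
Tnfsf13b (second window), chr8:10006383-10006632, plus strand: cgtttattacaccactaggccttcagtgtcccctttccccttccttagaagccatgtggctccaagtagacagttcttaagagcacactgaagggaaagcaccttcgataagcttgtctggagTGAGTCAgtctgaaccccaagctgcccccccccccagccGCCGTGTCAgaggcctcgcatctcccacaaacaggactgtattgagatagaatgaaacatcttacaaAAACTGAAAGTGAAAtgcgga
Tnfsf8, chr4:63861285-63861534, minus strand: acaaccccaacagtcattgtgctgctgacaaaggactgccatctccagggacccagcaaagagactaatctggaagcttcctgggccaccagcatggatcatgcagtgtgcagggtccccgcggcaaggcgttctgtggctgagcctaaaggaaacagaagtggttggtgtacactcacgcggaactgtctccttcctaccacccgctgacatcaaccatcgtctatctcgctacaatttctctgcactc
The ISRE was searched as the core TTTCNNTTT with a further C at its end, and 3.44% of 32851 mouse promoter windows hold it. Among the ligands it was found in Tnfsf13b, 16 bases before the start on the opposite strand. The core without that C, which overlaps the ISRE and was added after the Tnfsf10 sequence had been seen, occurs in 10.6% of windows. Tnfsf10 holds it 53 bases before the start and, on the opposite strand, 31 bases before it, and Tnfsf13b holds it within and beside its ISRE.

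The AP-1 motif TGANTCA, present in 7.81% of windows, was found in Tnfsf13b and in Tnfsf14, where it lies 160 bases before the start. An antioxidant response motif, TGACNNNGC, present in 12.4% of windows, was found in Tnfsf13b. The STAT motif TTCNNNGAA (8.3% of windows) and the NF-κB consensus (8.46% of windows) were found in 0 of the 8 ligand windows, Tnf included. A match is a description of the letters in these windows, and a missing match says nothing of sites elsewhere.

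Libraries held between 15723437 and 17744844 reads rebuilt from the deposited FPKM. All 10 macrophage markers were above the filter, with Lyz2 (lysozyme) at a mean of 9119 FPKM over the 8 libraries. Of the T cell list, 3 of 10 genes were above the filter. Its highest means were those of Cd28 (10.3 FPKM), Cd4 (3.3 FPKM) and Lck (1.41 FPKM). Another 4 had no read in any library, Cd3e, Cd3d and Cd3g among them. Of the NK cell list 1 of 8 genes was above the filter, Klrk1, and Ncr1, Gzma, Gzmb and Prf1 were at 0. The B cell, mast cell and stromal lists had 0 genes above the filter, and the neutrophil and dendritic cell lists had 2 each. In bulk RNA a change in the number of cells that make a transcript and a change in the amount per cell cannot be told apart, which holds for every level below.

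The 10 ligands together summed to 139 and 136 FPKM in spermine 3 h libraries, 60.9 and 61.1 FPKM in spermine 0 h, 260 and 229 FPKM in PBS 3 h, and 34.6 and 34.6 FPKM in PBS 0 h. The gene that led the sum differed between groups. Tnf made up 39.5% of it in spermine 3 h and 44% in spermine 0 h. Tnfsf10 made up 73% in PBS 3 h, and Tnfsf12, which encodes TWEAK, a ligand of tissue repair and inflammation, made up 66.7% in PBS 0 h. At least 1 FPKM in both libraries was reached by 6 ligands in spermine 3 h, 5 in spermine 0 h, 7 in PBS 3 h and 4 in PBS 0 h.

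**Figure D1:**
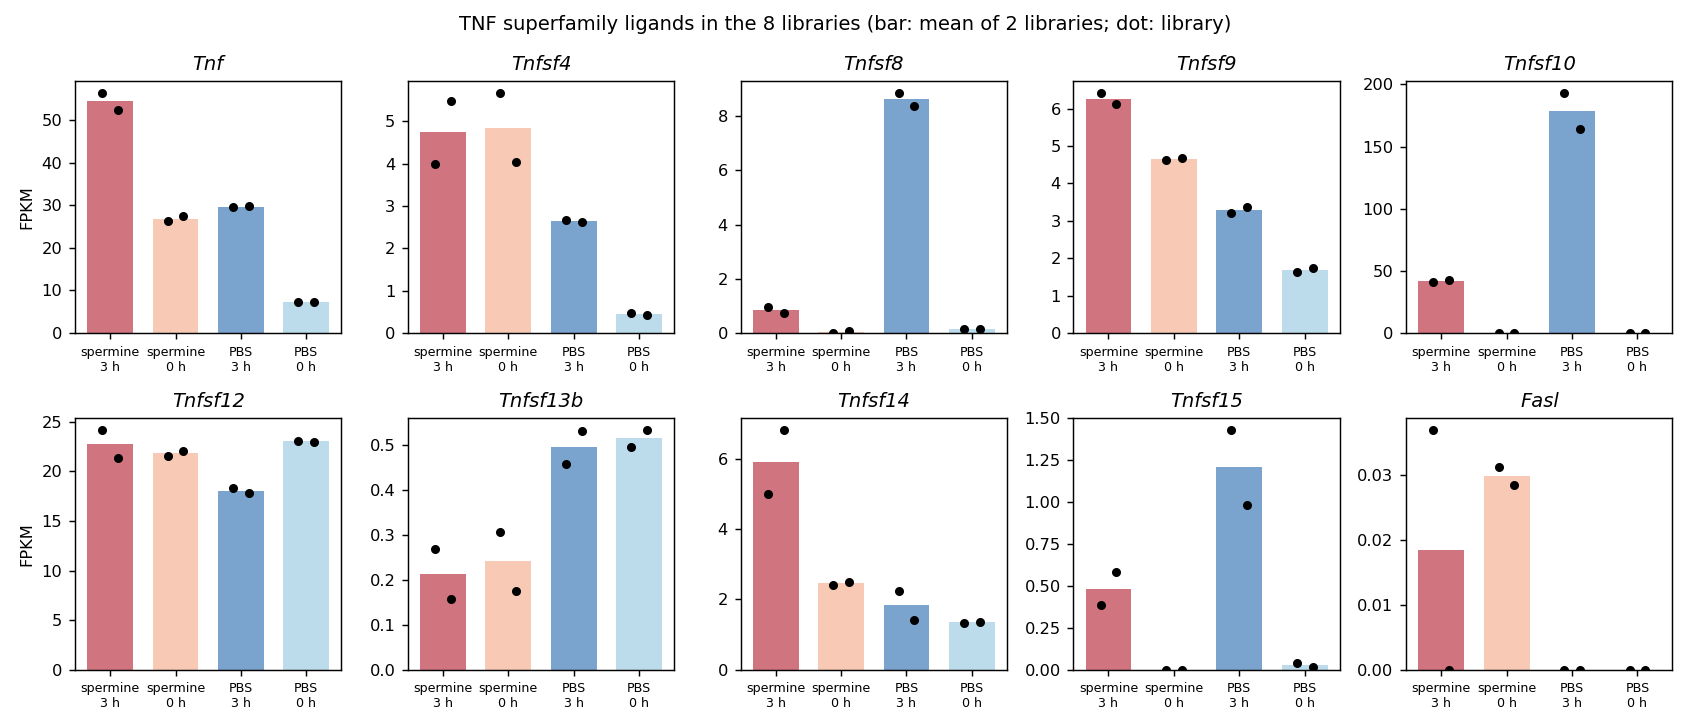
FPKM of each of the 10 TNF superfamily ligands (y axis, a separate linear scale per gene) in the 4 groups (x axis); bars are means of 2 libraries and dots are single libraries. Tnfsf8, Tnfsf10 and Tnfsf15 are tallest in PBS 3 h, while Tnf, Tnfsf9 and Tnfsf14 are tallest in spermine 3 h and Tnfsf13b is lower in both spermine groups.

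Across the 7 tested ligands, IFN-β raised 5 and lowered 0 with spermine, and raised 5 and lowered 1 with PBS. In all genes tested, 19.7% were higher and 22.1% lower with spermine, and 24.6% were higher and 25.0% lower with PBS. Spermine against PBS raised 5 and lowered 2 at 3 h, where 19.9% of all genes were higher and 20.6% lower. At 0 h spermine raised 4 and lowered 0, against 22.0% of all genes higher and 19.2% lower. The response with spermine minus that with PBS was negative past the threshold in 4 ligands and positive in 0, where 5.82% of all genes were positive and 7.75% negative. The threshold was a limma adjusted p of 0.05 on log2(FPKM + 1). Median log2 changes of the 7 ligands were 0.82 and 1.33 for IFN-β with spermine and with PBS, and 0.64 and 0.56 for spermine at 3 h and at 0 h. The medians of all genes in the same comparisons lay at -0.01, -0.02, 0.00 and 0.01. Tnfsf10 passed the filter only through 3 h libraries, and Tnfsf8 only through those of PBS 3 h, so they had to differ from the groups under the filter. These counts are a description of the ligands that passed.

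**Figure D2:**
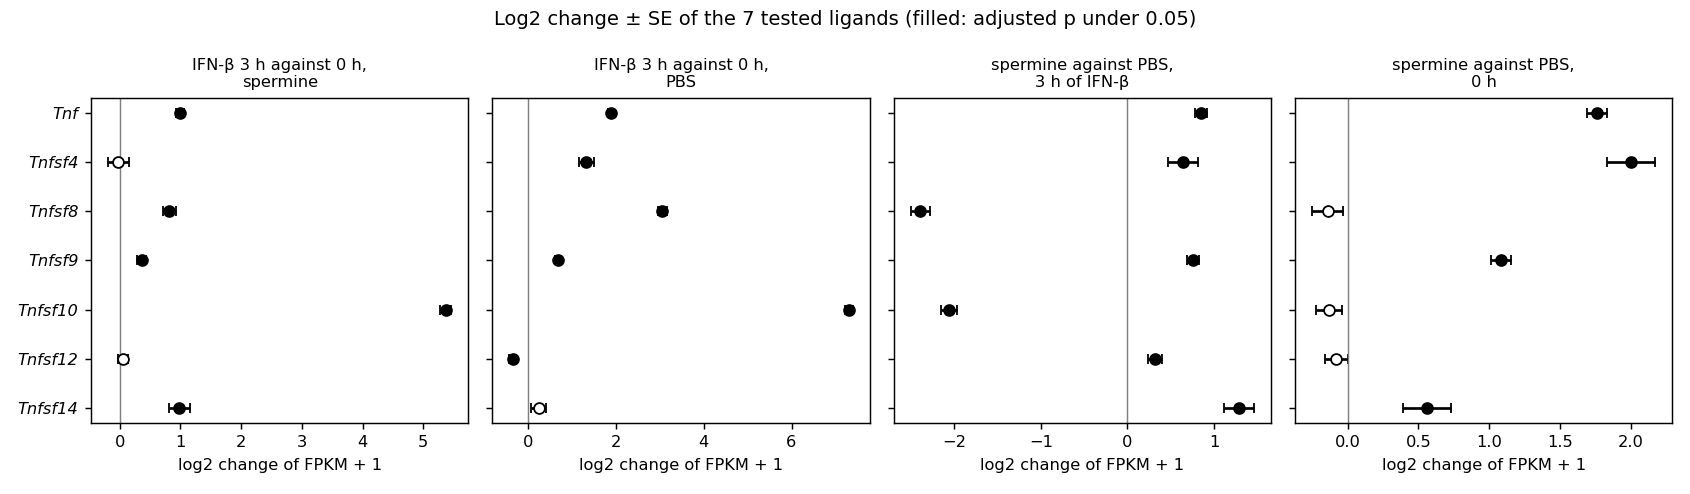
Log2 change of FPKM + 1 (x axis, bars are standard errors of the fit) for the 7 tested ligands (y axis) in 4 comparisons; filled points have an adjusted p under 0.05. Tnfsf10 and Tnfsf8 lie right of 0 for IFN-β in both treatments and left of 0 for spermine against PBS at 3 h, while Tnf lies right of 0 in all 4 panels.

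Among the ligands with a death-inducing receptor, Tnf and Tnfsf10 moved in opposite directions with spermine at 3 h. Tnf encodes the inflammatory cytokine TNF, which acts through Tnfrsf1a and Tnfrsf1b. It had 56.3 and 52.4 FPKM in spermine 3 h, 26.2 and 27.5 FPKM in spermine 0 h, 29.6 and 29.7 FPKM in PBS 3 h, and 7.17 and 7.3 FPKM in PBS 0 h. The groups did not overlap in any of the 4 comparisons. Spermine alone brought Tnf close to the level that IFN-β brought it to in PBS, a mean of 26.8 ± 0.932 FPKM in spermine 0 h and 29.7 ± 0.0326 FPKM in PBS 3 h (SD, n = 2 each). With both, Tnf was the most abundant of the 10 ligands.

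IFN-β raised Tnf 2.02-fold in reads with spermine (1.90- to 2.16-fold) and 4.1-fold with PBS (3.71- to 4.55-fold). These ratios use rebuilt reads scaled by the authors' library factors, and their intervals are exact 95% intervals that cover counting error only. On the log2(FPKM + 1) scale the changes were 0.99 ± 0.07 with spermine (SE, adjusted p = 3.63e-05) and 1.90 ± 0.07 with PBS (adjusted p = 8.79e-07). The response with spermine minus that with PBS was -0.90 ± 0.09 (adjusted p = 0.00295), and -1.02 ± 0.14 in a fit of the rebuilt reads with limma voom (adjusted p = 0.00117). Spermine against PBS gave 0.85 ± 0.07 at 3 h (adjusted p = 0.000148), beside 3.71-fold more reads at 0 h (3.36- to 4.11-fold). All 5 Tnf results kept their call in every alternative run. The summed dendritic cell list had the same order of groups as Tnf, at 6.44 to 7.61 FPKM in spermine 3 h, 2.24 to 2.27 FPKM in spermine 0 h, 4.26 to 5.25 FPKM in PBS 3 h and 1.11 to 1.36 FPKM in PBS 0 h, with Xcr1 as its highest gene (mean 2.7 FPKM) and Flt3 and Zbtb46 under the filter. Its part in the Tnf levels was not tested.

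Tnfsf10 encodes TRAIL, which induces apoptosis through a death receptor, Tnfrsf10b in mouse. It had 41.1 and 42.8 FPKM in spermine 3 h, 0.0344 and 0.0418 FPKM in spermine 0 h, 193 and 164 FPKM in PBS 3 h, and 0.158 and 0.113 FPKM in PBS 0 h. At 0 h these values rest on 3 and 4 reads with spermine and 19 and 12 reads with PBS. By mean FPKM, Tnfsf10 stood at place 1253 of all genes in spermine 3 h and at place 276 in PBS 3 h. It was lower with spermine at 3 h, where 6372 reads stood against 28165 with PBS, 4.24-fold fewer after scaling (4.12- to 4.35-fold), and the log2 change was -2.06 ± 0.09 (adjusted p = 1.66e-05).

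At 0 h Tnfsf10 was also lower with spermine in reads, 3.57-fold (1.54- to 9.62-fold, counting error only). On the log2(FPKM + 1) scale that difference was -0.13 ± 0.09 and not called (adjusted p = 0.299). It was called with a pseudocount of 0.1 (-0.76, adjusted p = 0.00425) and after rescaling to TPM (-0.46, adjusted p = 0.0109). The fold over 0 h with IFN-β was 1097 with spermine (532 to 2730) and 1299 with PBS (915 to 1912), and these intervals overlap. On the log2(FPKM + 1) scale, which flattens levels far under 1, the responses were 5.37 ± 0.09 with spermine (adjusted p = 5.62e-08) and 7.30 ± 0.09 with PBS. The change with spermine was 8.25 with a pseudocount of 0.1 and 9.91 in limma voom. The difference of the responses was -1.93 ± 0.13 (adjusted p = 0.00132). Tnfsf10 passed the filter only through 3 h libraries, so these tests were conditioned on high levels there. In a limma fit of all genes without a filter the responses were 5.37 with spermine (adjusted p = 1.58e-06) and 7.30 with PBS (adjusted p = 8.45e-07). Their difference in that fit was -1.93 (adjusted p = 0.00445). With a pseudocount of 0.1 the difference was -1.32 (adjusted p = 0.00933), and in limma voom on rebuilt reads, which adds a small offset to each count in place of 1 FPKM, it was -0.41 ± 0.72 (adjusted p = 0.756). The lower level at 3 h kept its call in every alternative, whereas the smaller response depended on the scale.

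Fasl, the ligand of the death receptor Fas and a product of cytotoxic lymphocytes, was near absent. It had 1 and 0 reads in spermine 3 h, 1 read in each spermine 0 h library and 0 reads in the 4 PBS libraries. A count of 0 allows up to 3 reads in a library, so no difference was detectable at this depth.

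Of the ligands that costimulate T cells, Tnfsf4, Tnfsf9 and Tnfsf14 were higher with spermine, and Tnfsf8 and Tnfsf15 were lower with it after IFN-β. Tnfsf4 encodes OX40L, which engages OX40 on activated T cells. It had 3.99 and 5.49 FPKM in spermine 3 h, 5.67 and 4.03 FPKM in spermine 0 h, 2.68 and 2.62 FPKM in PBS 3 h, and 0.474 and 0.431 FPKM in PBS 0 h. The spermine libraries at 3 h and at 0 h overlapped, and all of them lay above every PBS library. At 0 h Tnfsf4 was 10.6-fold higher with spermine in reads (7.49- to 15.4-fold), the highest ratio among the ligands at that time, with a log2 change of 2.00 ± 0.17 (adjusted p = 0.000201), and of 3.35 in limma voom.

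IFN-β raised Tnfsf4 with PBS, 5.84-fold in reads (4.03- to 8.66-fold; log2 change 1.33 ± 0.17, adjusted p = 0.000579, and 2.52 in limma voom). With spermine the change was -0.02 ± 0.17 (adjusted p = 0.92), and the read ratio was 0.99 (0.835 to 1.17). The difference of the responses was -1.36 ± 0.24 (adjusted p = 0.0151) and -2.53 in limma voom (adjusted p = 0.00599). It lost its call without PBS 0 h replicate 1 (-1.38, adjusted p = 0.0545), PBS 0 h replicate 2 (-1.33, adjusted p = 0.0646) or spermine 3 h replicate 1 (-1.17, adjusted p = 0.0537). At 3 h the level was higher with spermine by 0.64 ± 0.17 (adjusted p = 0.022), a call lost without the filter (adjusted p = 0.0652), after rescaling to TPM (0.55), and without spermine 3 h replicate 2 (0.45), PBS 3 h replicate 1 (0.65) or PBS 3 h replicate 2 (0.63).
The summed T cell list moved in the same direction at 0 h, 22.4 to 24 FPKM with spermine and 13.1 to 14.2 FPKM with PBS. At 3 h the list was at 12 to 13.6 FPKM with spermine and 11.3 to 12.2 FPKM with PBS. Its highest gene was Cd28, at a mean of 10.3 FPKM, and its part in the Tnfsf4 levels was not tested. Cd3e, Cd3d, Cd3g and Bcl11b were at 0 in all libraries.

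Tnfsf9 encodes 4-1BBL, the ligand of a costimulatory receptor of T and NK cells. It had 6.42 and 6.12 FPKM in spermine 3 h, 4.63 and 4.69 FPKM in spermine 0 h, 3.22 and 3.36 FPKM in PBS 3 h, and 1.62 and 1.73 FPKM in PBS 0 h. No groups overlapped, and the order of the 4 groups was that of Tnf apart from the middle pair. Spermine against PBS gave 0.76 ± 0.07 at 3 h (adjusted p = 0.00037) and 1.08 ± 0.07 at 0 h (adjusted p = 8.21e-05). IFN-β raised it by 0.36 ± 0.07 with spermine (adjusted p = 0.00773) and by 0.68 ± 0.07 with PBS (adjusted p = 0.000264; 0.44 after rescaling to TPM). The change with spermine lost its call after rescaling to TPM (0.09, adjusted p = 0.445), in limma voom (0.43, adjusted p = 0.0582) and without spermine 3 h replicate 1 (0.33, adjusted p = 0.0549). The difference of the responses, -0.32 ± 0.10, did not pass the threshold (adjusted p = 0.0914).

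Tnfsf14 encodes LIGHT, which binds the receptors Tnfrsf14 and Ltbr. It had 4.99 and 6.83 FPKM in spermine 3 h, 2.42 and 2.5 FPKM in spermine 0 h, 2.25 and 1.41 FPKM in PBS 3 h, and 1.32 and 1.37 FPKM in PBS 0 h. Both spermine 3 h libraries lay above the other 6. IFN-β raised it with spermine, 2.41-fold in reads (1.99- to 2.94-fold; log2 change 0.98 ± 0.17, adjusted p = 0.0042). With PBS the change was 0.25 ± 0.17 (adjusted p = 0.271), 0.04 without PBS 3 h replicate 1 and 0.47 without PBS 3 h replicate 2. The difference of these responses, 0.73 ± 0.25, did not pass the threshold (adjusted p = 0.101), so a larger response with spermine was not shown.
At 3 h Tnfsf14 was 3.3-fold higher with spermine in reads (2.63- to 4.17-fold; log2 change 1.29 ± 0.17, adjusted p = 0.00149). The change at 0 h was 0.56 ± 0.17 (adjusted p = 0.0393; 0.87 in limma voom). It lost its call without the filter (adjusted p = 0.105), after rescaling to TPM (0.45), when any of the 4 libraries at 0 h was left out (0.54 to 0.58) and when the replicate number was a block (0.56, adjusted p = 0.0528).

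Tnfsf8 encodes CD30L, which engages CD30 on activated lymphocytes. It had 0.956 and 0.726 FPKM in spermine 3 h, 0.0159 and 0.0722 FPKM in spermine 0 h, 8.85 and 8.39 FPKM in PBS 3 h, and 0.149 and 0.156 FPKM in PBS 0 h. The PBS 3 h libraries stood apart from the other 6. At 3 h Tnfsf8 was 10.3-fold lower with spermine in reads (8.26- to 12.9-fold), the largest decrease among the ligands at that time, with a log2 change of -2.39 ± 0.11 (adjusted p = 1.7e-05). Tnfsf8 passed the filter only through the PBS 3 h libraries. That test, the test of IFN-β with PBS and the difference of the responses were therefore conditioned on a high level there. In a fit of all genes without a filter the change at 3 h was -2.39 (adjusted p = 0.000212). The change of Tnfsf8 for IFN-β with PBS was 3.06 in that fit (adjusted p = 1.75e-05). At 0 h 6 reads with spermine stood against 25 with PBS, 3.37-fold fewer (1.35- to 10-fold), a difference the fit did not call (-0.14 ± 0.11, adjusted p = 0.327).
IFN-β raised Tnfsf8 18.5-fold in reads with spermine (8.17- to 51.7-fold) and 56.4-fold with PBS (38- to 87.6-fold), and these intervals overlap. The log2 changes were 0.82 ± 0.11 with spermine (adjusted p = 0.00107) and 3.06 ± 0.11 with PBS (adjusted p = 9.4e-07), and 4.25 and 5.76 in limma voom. The difference of the responses, -2.24 ± 0.15 (adjusted p = 0.00132), was -1.52 in limma voom and lost its call (adjusted p = 0.204).

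Tnfsf15 encodes TL1A, a ligand of the death-domain receptor Tnfrsf25 that costimulates T cells. It had 0.384 and 0.584 FPKM in spermine 3 h, 0 in both spermine 0 h libraries, 1.43 and 0.98 FPKM in PBS 3 h, and 0.0391 and 0.0148 FPKM in PBS 0 h. It reached 1 FPKM in a single library and was therefore not in the main test. At 3 h it had 47 reads with spermine and 120 with PBS, 2.44-fold fewer (1.73- to 3.51-fold), the same direction as its chromosome 4 neighbour Tnfsf8. IFN-β with PBS raised the reads 42.9-fold (16.3- to 160-fold). With spermine the level at 3 h was at least 9.36-fold higher than a floor of 3 reads per library at 0 h.
In limma voom with all genes of at least 10 reads, an alternative added after the data had been seen, Tnfsf15 was lower with spermine at 3 h (log2 change -1.28 ± 0.35, adjusted p = 0.0127). It rose with IFN-β by 5.82 ± 0.98 with spermine (adjusted p = 0.000408) and by 5.19 ± 0.72 with PBS (adjusted p = 4.91e-05), and the difference of 0.63 did not pass the threshold (adjusted p = 0.813). Without a filter, on the log2(FPKM + 1) scale, the difference at 3 h was -0.57 (adjusted p = 0.0258), and the difference of the responses had the other sign, -0.53 (adjusted p = 0.168).

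The summed NK cell list was highest in PBS 3 h and next in spermine 3 h, as were Tnfsf8, Tnfsf10 and Tnfsf15. It was at 1.19 to 1.59 FPKM in spermine 3 h, 0.0524 to 0.131 FPKM in spermine 0 h, 4.97 to 7.18 FPKM in PBS 3 h and 0.0611 to 0.167 FPKM in PBS 0 h. The ranges at 0 h overlapped between the treatments. Nearly all of the sum was Klrk1 (mean 1.76 FPKM over the 8 libraries), and the next highest gene, Klrd1, averaged 0.093 FPKM. A single one of the 8 genes of the list, Klrk1, passed the filter, and Ncr1, Gzma, Gzmb and Prf1 were at 0 in all 8 libraries. The part of the list in the levels of these ligands was not tested.

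**Figure D3:**
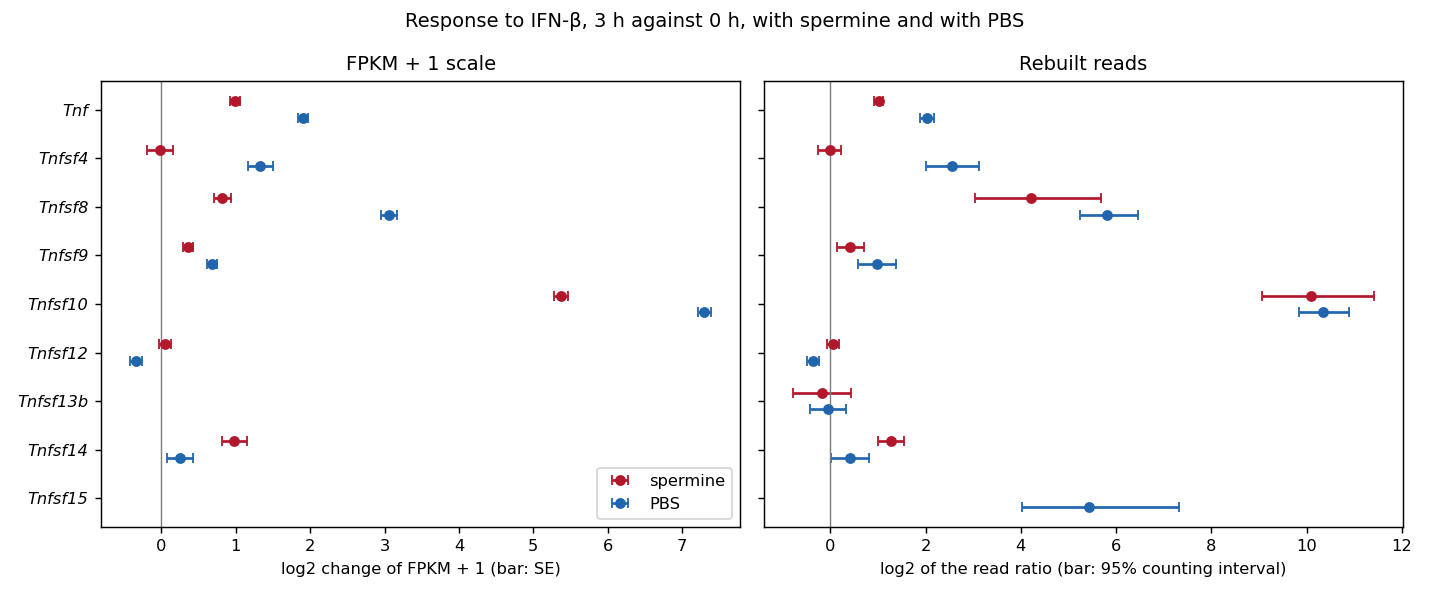
Response to IFN-β, 3 h against 0 h, for each ligand (y axis) with spermine (red) and with PBS (blue): left, log2 change of FPKM + 1 with standard errors for the 7 tested ligands; right, log2 of the read ratio with 95% counting intervals, for 9 ligands (Fasl, with 0 to 1 read per library, is not drawn, and Tnfsf15 with spermine had 0 reads at 0 h and has no ratio). The gap between red and blue for Tnfsf10 is wide on the left and within the intervals on the right, while for Tnf and Tnfsf4 the gap is there on both scales.

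Tnfsf12 was the most even of the ligands. It had 24.2 and 21.3 FPKM in spermine 3 h, 21.6 and 22.1 FPKM in spermine 0 h, 18.3 and 17.8 FPKM in PBS 3 h, and 23.1 and 23 FPKM in PBS 0 h. The PBS 3 h libraries were the lowest, and the other 3 groups lay close together. IFN-β lowered it with PBS, to 0.781 of the scaled reads (0.716 to 0.851), a log2 change of -0.34 ± 0.08 (adjusted p = 0.00881), which was -0.82 after rescaling to TPM and -0.66 after quantile normalization. With spermine the change was 0.05 ± 0.08 (adjusted p = 0.602), and it turned to -0.27 after rescaling to TPM (adjusted p = 0.0198) and to -0.18 after quantile normalization.
At 3 h it was higher with spermine by 0.32 ± 0.08 (adjusted p = 0.0155), a call lost after rescaling to TPM (0.12) or quantile normalization (0.19), in a fit of those 2 groups alone (0.32, adjusted p = 0.0572) and without spermine 3 h replicate 1 (0.23) or PBS 3 h replicate 2 (0.30). At 0 h its change with spermine was -0.08 ± 0.08 (adjusted p = 0.462), and it was called after rescaling to TPM (-0.42, adjusted p = 0.00395) and quantile normalization (-0.29, adjusted p = 0.0216). The difference of the responses, 0.39 ± 0.11, did not pass the threshold (adjusted p = 0.0563), but did after rescaling to TPM (0.54, adjusted p = 0.0222) and quantile normalization (0.48, adjusted p = 0.0256).

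Tnfsf13b encodes BAFF, the survival factor of B cells. It had 0.27 and 0.157 FPKM in spermine 3 h, 0.308 and 0.176 FPKM in spermine 0 h, 0.459 and 0.532 FPKM in PBS 3 h, and 0.496 and 0.535 FPKM in PBS 0 h. Every spermine library lay under every PBS library, while 3 h and 0 h overlapped in both treatments. In reads it was 2.35-fold lower with spermine at 3 h (1.63- to 3.45-fold) and 2.15-fold lower at 0 h (1.58- to 2.98-fold). In the added limma voom fit the changes were -1.26 ± 0.37 at 3 h (adjusted p = 0.0209) and -1.14 ± 0.32 at 0 h (adjusted p = 0.0144). Without a filter on the log2(FPKM + 1) scale, which flattens such low levels, they were -0.30 (adjusted p = 0.062) and -0.29 (adjusted p = 0.0705). IFN-β changed its reads to 0.888 of the 0 h level with spermine (0.582 to 1.35) and to 0.969 with PBS (0.747 to 1.25). It is the ligand with the complete ISRE in its window, printed above.

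Of 8 further superfamily ligands, Tnfsf13 (APRIL, a plasma cell survival factor) passed the filter, and it was not called in any of the 5 comparisons at the settings given above. Its calls moved with the setting: spermine against PBS at 0 h (-0.46, adjusted p = 0.0867) and IFN-β with PBS (-0.49, adjusted p = 0.0638) were called after rescaling to TPM, with the replicate block and without PBS 3 h replicate 2, the first also without PBS 3 h replicate 1 and in a fit of those 2 groups alone. Without PBS 3 h replicate 2 the difference of the responses (0.60, adjusted p = 0.184) was called as well. Cd40lg and Cd70, ligands of activated lymphocytes, had 0 reads in all libraries.

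Of the 28 receptors of the superfamily, 13 passed the filter. IFN-β raised 7 and lowered 3 of these with spermine, and raised 5 and lowered 6 with PBS. Spermine against PBS raised 6 and lowered 5 at 3 h, and raised 4 and lowered 4 at 0 h. Of all genes, 19.7% were higher and 22.1% lower with IFN-β in spermine, 24.6% and 25.0% in PBS, 19.9% and 20.6% with spermine at 3 h, and 22.0% and 19.2% at 0 h. The 11 receptors called at 3 h became 5 without spermine 3 h replicate 1, 6 without spermine 3 h replicate 2, and 7 without PBS 3 h replicate 1 or after rescaling to TPM. The medians over the 13 were 0.26 and 0.26 for IFN-β with spermine and with PBS, and 0.26 and -0.04 for spermine at 3 h and at 0 h. Cd40, a costimulatory receptor of antigen presenting cells, had the largest rise, to 37.2 ± 0.315 FPKM in spermine 3 h against 0.574 ± 0.241 FPKM in spermine 0 h, and to 62.8 ± 0.167 FPKM in PBS 3 h against 0.614 ± 0.00247 FPKM in PBS 0 h (SD, n = 2 each). Cd40 was under 1 FPKM in every 0 h library and passed the filter only through 3 h libraries. Its tests for IFN-β and of the difference of the responses were therefore conditioned on high levels there.

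Tnfrsf14, the receptor of Tnfsf14, moved the other way from its ligand with spermine. It averaged 4.32 ± 0.00358 FPKM in spermine 3 h and 22.3 ± 0.305 FPKM in PBS 3 h (log2 change -2.13 ± 0.13, adjusted p = 6.24e-05). At 0 h it averaged 1.03 ± 0.38 FPKM with spermine and 6.31 ± 0.684 FPKM with PBS (-1.86 ± 0.13, adjusted p = 9.97e-05). IFN-β raised it by 1.40 with spermine and by 1.67 with PBS, and so its level in spermine 3 h stayed under that in PBS 0 h.

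The TNF receptor with a death domain, Tnfrsf1a, rose with IFN-β by 1.61 ± 0.09 with spermine (adjusted p = 1.34e-05) and by 1.66 ± 0.09 with PBS (adjusted p = 7.08e-06). It was also higher with spermine, by 0.41 at 3 h and 0.46 at 0 h. Tnfrsf1b, the other TNF receptor, fell with IFN-β, with log2 changes of -0.47 with spermine and -0.83 with PBS. Tnfrsf12a, the receptor of Tnfsf12, averaged 9.93 ± 2.29 FPKM in spermine 0 h and 4.03 ± 0.143 FPKM in PBS 0 h (1.10 ± 0.17, adjusted p = 0.00274). At 3 h its difference of 0.78 (adjusted p = 0.0119) lost its call without spermine 3 h replicate 1 (0.64) or PBS 3 h replicate 1 (0.62).
Fas, the receptor of Fasl, was lower with spermine at 3 h, at 8.61 ± 0.578 FPKM against 17.4 ± 1.44 FPKM in PBS 3 h (-0.94 ± 0.08, adjusted p = 0.000286). It was also lower at 0 h (-0.37, adjusted p = 0.013). Tnfrsf11a, the receptor of RANKL, was lower with spermine at 0 h (-1.08 ± 0.07, adjusted p = 5.46e-05) and at 3 h (-0.42, adjusted p = 0.00298). The mouse receptor Tnfrsf26 was higher with spermine at 0 h (1.40 ± 0.18, adjusted p = 0.00111). Its difference of 0.77 at 3 h (adjusted p = 0.0134) lost its call without either spermine 3 h library (0.79 and 0.74) or PBS 3 h replicate 2 (0.60).
Tnfrsf13b (TACI), a receptor of BAFF, was lower with spermine at 3 h (-0.39, adjusted p = 0.0184) and at 0 h (-0.90, adjusted p = 0.000547), as was its ligand gene Tnfsf13b in reads. Of the mouse decoy receptors of TRAIL, Tnfrsf23 was higher with spermine by 0.36 at 3 h (adjusted p = 0.0288) and by 0.36 at 0 h (adjusted p = 0.027), and Tnfrsf22 had 0.32 and -0.04 and was not called (adjusted p = 0.0703 and 0.802). Tnfrsf10b, the death receptor of TRAIL, Tnfrsf13c, another receptor of BAFF, and Tnfrsf4, Tnfrsf8, Tnfrsf9 and Tnfrsf25 did not pass the filter. For the difference of the responses, 2 receptors were called positive and 2 negative, where 5.82% of all genes were positive and 7.75% negative. The number called became 2 with a pseudocount of 0.1, without the filter and in limma voom. Tnfrsf11a had 0.66 ± 0.09 (adjusted p = 0.00765). That of Cd40 (-0.70) lost its call without any 1 of the spermine 3 h, PBS 3 h or PBS 0 h libraries (-0.70 to -0.69). Those of Fas (-0.57) and Tnfrsf1b (0.36) did so without any 1 library other than PBS 3 h replicate 2 (-0.63 to -0.49 for Fas, 0.33 to 0.39 for Tnfrsf1b). The differences of Cd40 and Fas also lost their calls without the filter, with a pseudocount of 0.1 (-0.62 and -0.51) and after rescaling to TPM (-0.63 and -0.41). In limma voom they were -0.58 (adjusted p = 0.284) and -0.50 (adjusted p = 0.195). That of Tnfrsf1b lost its call in the fit with no trend.

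**Figure D4:**
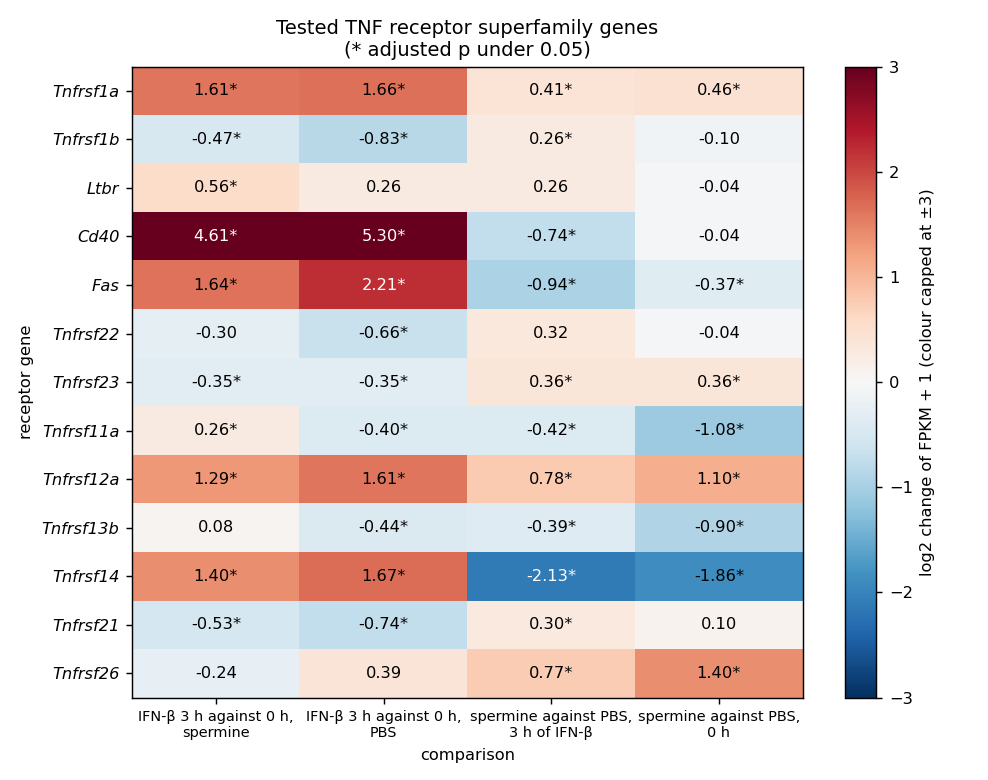
Log2 change of FPKM + 1 (colour and number, colour capped at 3) of the 13 tested receptors of the superfamily (rows) in 4 comparisons (columns); asterisks mark an adjusted p under 0.05. Cd40, Fas, Tnfrsf14, Tnfrsf1a and Tnfrsf12a are red for IFN-β in both treatments, and Tnfrsf14 is the bluest row for spermine against PBS.

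All 25 listed adaptors, kinases and caspases of TNF receptor signalling were tested. IFN-β raised 9 and lowered 4 with spermine, and raised 14 and lowered 6 with PBS (medians 0.11 and 0.53). Spermine raised 5 and lowered 6 at 3 h, and raised 7 and lowered 3 at 0 h (medians -0.13 and 0.00). The shares of all genes called are those given beside the receptors. The 10 calls at 0 h became 6 without spermine 0 h replicate 1 or PBS 0 h replicate 1, and the 11 at 3 h became 17 after rescaling to TPM. Mlkl, the executor of necroptosis, rose to 71.4 ± 1.4 FPKM in spermine 3 h against 10.3 ± 0.381 FPKM in spermine 0 h, and to 85.2 ± 7.21 FPKM in PBS 3 h against 5.71 ± 1.1 FPKM in PBS 0 h. Casp8, the initiator caspase of death receptors, rose by 1.69 with spermine and by 2.10 with PBS, its inhibitor Cflar by 1.94 and 1.92, and Rnf31, a catalytic subunit of the linear ubiquitin ligase, by 2.33 and 2.40.
Among these genes the largest difference of the responses was that of Tnfaip3, which encodes A20, an inhibitor of NF-κB signalling that TNF itself induces. Its response with spermine minus that with PBS was -1.31 ± 0.13 (adjusted p = 0.00285). It was lower with spermine at 3 h (6.47 ± 0.214 FPKM, against 10.6 ± 1.11 FPKM with PBS) and higher at 0 h (7.11 ± 0.533 FPKM, against 4.07 ± 0.113 FPKM with PBS).
At 3 h Birc3 and Birc2, ubiquitin ligases of the TNF receptor complex, were lower with spermine, with log2 changes of -0.66 (adjusted p = 0.00154) and -0.65 (adjusted p = 0.0033), and Map3k14, the kinase of non-canonical NF-κB signalling, was higher by 0.76 (adjusted p = 0.00105). Ripk1, the death-domain kinase of the same complex, was higher with spermine by 0.81 at 0 h (adjusted p = 0.000251) and by 0.62 at 3 h (adjusted p = 0.000793).

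Of 8 genes of ligand shedding and cleavage, 7 were tested. IFN-β raised 4 and lowered 0 with spermine, and raised 3 and lowered 0 with PBS. Spermine raised 2 and lowered 2 at 3 h, and raised 1 and lowered 1 at 0 h, where the shares of all genes are again those given with the receptors. The 4 calls at 3 h became 1 without either spermine 3 h library or PBS 3 h replicate 1, and 2 without the filter. The 2 at 0 h became 5 after rescaling to TPM, 4 with quantile normalization, limma voom or the replicate block, and 1 without spermine 0 h replicate 1 or PBS 0 h replicate 2. The 3 for IFN-β with PBS became 5 after rescaling to TPM. Rhbdf2, the partner that brings the TNF sheddase Adam17 to the cell surface, had 82 ± 0.981 FPKM in spermine 3 h and 26 ± 2.35 FPKM in spermine 0 h (1.62 ± 0.10, adjusted p = 2.19e-05). With PBS it had 61.6 ± 7.18 FPKM at 3 h and 12.6 ± 0.203 FPKM at 0 h (2.19 ± 0.10, adjusted p = 2.96e-06). Sppl2a, a protease that cuts the remaining membrane stub of TNF, rose by 1.38 with spermine and by 1.78 with PBS. Adam17 itself was lower with spermine at 3 h (log2 change -0.29, adjusted p = 0.041), a call lost without either spermine 3 h library (-0.23 and -0.34), without PBS 3 h replicate 1 (-0.19) and without either PBS 0 h library (-0.29). Furin, which processes Tnfsf12 and Adam17, rose by 0.93 with spermine (adjusted p = 0.00131). With PBS its change of 0.48 was lost after rescaling to TPM (0.02) and quantile normalization (-0.01), and without PBS 3 h replicate 2 (0.33) or PBS 0 h replicate 1 (0.40).

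Of 9 genes that act on the AU-rich element or stem-loop of Tnf mRNA, IFN-β raised 4 and lowered 3 with spermine, and raised 2 and lowered 3 with PBS. Spermine raised 4 and lowered 2 at 3 h, and raised 4 and lowered 2 at 0 h, with the all-gene shares as for the receptors. The 7 calls for IFN-β with spermine became 3 without spermine 3 h replicate 1 and 4 without spermine 0 h replicate 1. The 5 with PBS became 3 without PBS 0 h replicate 2 and 8 after rescaling to TPM. Zfp36 encodes tristetraprolin, which binds the AU-rich element and promotes decay of Tnf mRNA. It had 763 ± 25.9 FPKM in spermine 3 h, 245 ± 26.3 FPKM in spermine 0 h, 211 ± 14.7 FPKM in PBS 3 h and 97.1 ± 2.88 FPKM in PBS 0 h, the same order of groups as Tnf apart from the middle pair. It was higher with spermine by 1.85 ± 0.09 at 3 h (adjusted p = 2.52e-05) and by 1.32 ± 0.09 at 0 h (adjusted p = 8.57e-05).
Its relative Zfp36l1 rose with IFN-β in spermine by 0.53 (adjusted p = 0.0131) and fell in PBS (log2 change -1.55, adjusted p = 5.72e-05), a difference of 2.08 ± 0.17 (adjusted p = 0.00191). Zfp36l2 had 315 ± 8.36 FPKM in spermine 3 h and 94.6 ± 15.3 FPKM in PBS 3 h (1.73 ± 0.16, adjusted p = 0.000329).

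For each tested ligand the 3 protein coding genes of nearest profile were found by the root mean square difference of centred log2(FPKM + 1) over the 8 libraries, which share one design, so that likeness describes these libraries alone. Nearest to Tnf were Sertad1 (0.17), Ptpn1 (0.21) and Stx11 (0.22), against a spread of 1.00 of Tnf itself. Sertad1 averaged 138 FPKM in spermine 3 h, 62.1 FPKM in spermine 0 h, 70.1 FPKM in PBS 3 h and 23 FPKM in PBS 0 h. Nearest to Tnfsf10 (spread 3.25) were Calhm6 (0.27), Gbp7 (0.32), which encodes an interferon-inducible guanylate binding protein, and Lipg (0.33). Calhm6 averaged 58.4 FPKM in spermine 3 h, 0.354 FPKM in spermine 0 h, 245 FPKM in PBS 3 h and 1.01 FPKM in PBS 0 h.
Nearest to Tnfsf8 (spread 1.29) were Clic5 (0.26), P2ry12 (0.27) and Hmgn3 (0.29). Hmgn3 averaged 6.22 FPKM in spermine 3 h and 25 FPKM in PBS 3 h. Nearest to Tnfsf4 (spread 0.82) were Pla2g4a (0.14), D16Ertd472e (0.20) and Rgs1 (0.23), and Pla2g4a, a phospholipase that releases arachidonic acid, averaged 13.2 FPKM in spermine 3 h and 8.22 FPKM in PBS 3 h. Nearest to Tnfsf9 (spread 0.54) were Agfg1 (0.08), Vps37c (0.10) and Fem1c (0.10). Nearest to Tnfsf14 (spread 0.60) were Zc3hav1l (0.21), Arnt (0.22) and Tbc1d9 (0.22). Tnfsf12 varied so little (spread 0.14) that its nearest genes, Mapk3, Eed and Actn1, at 0.05 to 0.06, are near-level genes of the same shape.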

How the data were processed

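RNA of mouse macrophages in 4 groups of 2 libraries was measured as FPKM, the unit of the table deposited by the authors. Per the submitters' processing notes, which give no order or role, the tools were HISAT2 2.0.5 and featureCounts 1.5.0-p3, with CASAVA 1.8 and fastp, DESeq2 1.20.0, and the builds GRCm38 and mm10. Per the labels' protocols, poly(A) mRNA was captured with poly-T beads and reverse transcribed from random primers. The series text names DMSO where the labels name PBS, and the extraction protocol names blood where the labels name macrophages; the labels of the samples were followed.

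Reads were rebuilt from FPKM and gene length, since 100% of the products were whole multiples (tolerance 0.001 read) of 1 step per library. That step matches median-of-ratios size factors, so the deposited scale holds the median gene steady.

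Genes with at least 1 FPKM in at least 2 libraries (11421) were fitted as log2(FPKM + 1) with limma 3.58.1 (R 4.3.3), with 4 group means, a trend and 4 residual degrees of freedom, and Benjamini-Hochberg adjustment over all of them, two-sided, at 0.05. This scale understates changes of genes near or under 1 FPKM. Intervals of read ratios are exact at 95% and cover counting error only. Alternatives were a pseudocount of 0.1, other filters, rescaling to TPM, quantile normalization, limma voom on rebuilt reads, no trend, the replicate number as a block, a fit of the compared groups alone, and each library left out. Scripts were tested on simulated data.

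The ligands and lists were chosen with earlier results of these data known. All ligands are described; of each other list, up to 4 genes per comparison were eligible to be named, those of largest change among the called whose groups did not overlap, and some of these are left out for length. Further values of the ligands' own receptors, of Tnfrsf11a, of Ripk1 and of Zfp36l1 were chosen after they had been seen. Promoters came from RefSeq (GRCm38.p6), with python 3.11.15.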

Additional observations from a re-analysis of the deposited data

Results flagged for a closer look

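The response to IFN-β was called different between spermine and PBS in 4 of the 7 tested ligands. The test was of the difference itself (limma, adjusted over 11421 genes). All 4 were negative, where 7.75% of all genes were negative and 5.82% positive past the threshold. Tnfsf8 passed the filter only through the PBS 3 h libraries, and Tnfsf10 only through 3 h libraries. Their differences were therefore conditioned on high levels there. The differences of the log2(FPKM + 1) changes, spermine minus PBS, were -0.90 ± 0.09 for Tnf, -1.36 ± 0.24 for Tnfsf4, -2.24 ± 0.15 for Tnfsf8 and -1.93 ± 0.13 for Tnfsf10 (SE). In limma voom on rebuilt reads those of Tnf (-1.02, adjusted p = 0.00117) and Tnfsf4 (-2.53, adjusted p = 0.00599) passed the threshold, and those of Tnfsf8 (-1.52, adjusted p = 0.204) and Tnfsf10 (-0.41, adjusted p = 0.756) did not. With spermine, Tnf and Tnfsf4 were higher than with PBS at both times. For Tnfsf4 the call at 3 h was lost in several alternatives, among them the fit without the filter and rescaling to TPM (0.55). The difference of its responses lost its call without PBS 0 h replicate 1 (-1.38), PBS 0 h replicate 2 (-1.33) or spermine 3 h replicate 1 (-1.17). Tnfsf8 and Tnfsf10 started from 6 and 7 reads over the spermine 0 h libraries and from 25 and 31 reads over the PBS 0 h libraries. The depth at 0 h therefore limits what can be said of the fold response of Tnfsf8 and Tnfsf10.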

How the results depend on the processing

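Of 26 called changes of the ligands, 19 kept direction and call in every alternative run. In the main test 19.7% of all genes were higher and 22.1% lower for IFN-β with spermine, and 24.6% and 25.0% with PBS. For spermine the shares were 19.9% and 20.6% at 3 h, and 22.0% and 19.2% at 0 h. For the difference of the responses they were 5.82% positive and 7.75% negative. Leaving out 1 library at a time, the number of ligands called was 4 to 5 for IFN-β with spermine and 6 to 6 with PBS, 5 to 7 for spermine at 3 h, 3 to 4 at 0 h and 3 to 4 for the difference of the responses, with the library left alone in its group assumed to vary like the others. That last number, 4, was 2 in limma voom on rebuilt reads and also 2 in the voom fit of all genes of at least 10 reads, which was added after the data had been seen. Changes not called in the main test that turned direction were IFN-β with PBS for Tnfsf14 (-0.06, TPM) and IFN-β with spermine for Tnfsf4 (0.18 without spermine 0 h replicate 1, 0.16 without spermine 3 h replicate 1, -0.23 to 0.18 with 1 library left out, -0.34 with TPM) and for Tnfsf12 (-0.27 with TPM, past the threshold, -0.18 with quantile normalization, -0.04 without spermine 3 h replicate 1). The called change of Furin with IFN-β in PBS turned to -0.01 with quantile normalization. The causes were not tested.

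Rescaling to TPM moved the median gene by -0.33 and -0.46 for IFN-β with spermine and with PBS, by -0.20 and -0.34 for spermine at 3 h and 0 h, and by 0.14 for the difference. With the replicate number as a block, 5 ligands were called for IFN-β with spermine, 6 with PBS, 7 for spermine at 3 h, 3 at 0 h and 4 for the difference, and Tnfsf14 at 0 h was the call lost. Over the tested genes, the deviations of same-numbered libraries from their group means correlated between pairs of groups at -0.126 to 0.371. The labels do not say that the numbers pair libraries. With the spermine 3 h numbers crossed, 5 ligands were called for IFN-β with spermine.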
